A study of Homo sapiens with 60 samples.

Results

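The mitochondrial genome carries 37 genes, and all 37 were found by the MT- prefix of their symbols among the 60675 genes of the count table. They are 2 ribosomal RNAs (rRNAs), 13 mRNAs and 22 transfer RNAs (tRNAs). The 2 rRNAs and 13 mRNAs passed the filter on low counts and were tested, and the 22 tRNAs did not pass it and are described by their counts. Under Coptidis Rhizoma extract, counts of the small rRNA MT-RNR1 were 20.3-fold, 23.7-fold and 14.5-fold higher than under vehicle at 5.2, 26 and 130 µg/mL. Lower at every dose were 6 mRNAs from the middle of the genome, MT-CO1, MT-CO2, MT-ATP8, MT-ATP6, MT-CO3 and MT-ND4L. At 5.2 µg/mL the calls of MT-CO2, MT-ATP8, MT-ATP6 and MT-ND4L were lost with only the compared libraries in the fit. High-dose Scutellariae Radix extract raised the counts of both rRNAs by a smaller amount, and wortmannin lowered both. They gave 3 and 2 calls in the 15 tested genes, where 23.9% and 25.3% of all genes were called. Neither count was a larger share than that. The other 4 extracts gave no call against vehicle, where at most 5.35% of all genes were called.

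Cells of A549, an established human lung carcinoma line, were exposed for 24 h, and directional mRNA libraries were sequenced in 20 groups of 3 libraries, 60 in all. Wortmannin, a PI3-kinase inhibitor, was the positive control and was given at 10 µM. The other agents were water extracts of 6 crude drugs, each at 3 doses. Zingiberis Rhizoma Recens (ZRR), Zingiberis Rhizoma (ZR), Pinelliae Tuber (PT) and Zizyphi Fructus (ZF) were given at 20, 100 and 500 µg/mL. The doses were 9.2, 46 and 230 µg/mL for Scutellariae Radix (SR). For Coptidis Rhizoma (CR) they were 5.2, 26 and 130 µg/mL. These doses are called low, medium and high below. The design text sets the top dose at the IC20 where that lies under 500 µg/mL, so the doses of SR and CR were chosen in another way than those of the other extracts. The DMSO vehicle, at 0.1% by the sample labels and 2% by the design text, is the reference.

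Human mitochondrial DNA is transcribed from both strands into long precursors. The heavy-strand precursor holds the rRNAs, 12 of the mRNAs and most tRNAs, and of the mRNAs the light-strand precursor holds only MT-ND6. The tRNAs lie between most of the other genes, and cutting them out at their ends releases the rRNAs and mRNAs. The mRNAs encode core subunits of the respiratory chain and of ATP synthase, and the rRNAs form the ribosome that translates them. Coptidis Rhizoma is known for the alkaloid berberine, a cationic compound that gathers in mitochondria.

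The sequences below show the borders that bear on how these genes are cut apart and counted, taken from abutting GENCODE 29 transcripts on GRCh38, plus strand of chromosome M. The first lies at chrM:1582-1690 between the rRNAs, and its capitals mark the valine tRNA MT-TV. The second, at chrM:3210-3304, ends the large rRNA, and its capitals mark the leucine tRNA MT-TL1, inside which the terminator MTERF1 is known to bind. The third, at chrM:8507-8592, joins the ATP synthase genes, and its capitals mark 46 bases that both genes share, in which a read cannot be given to one gene alone. The fourth, at chrM:14129-14168, joins the end of MT-ND5 in lower case to the end of MT-ND6 in capitals, written on the strand of MT-ND5.
MT-RNR1 to MT-RNR2: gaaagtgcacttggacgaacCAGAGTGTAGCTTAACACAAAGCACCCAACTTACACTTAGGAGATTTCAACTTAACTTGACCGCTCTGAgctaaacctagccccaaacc
MT-RNR2 to MT-TL1: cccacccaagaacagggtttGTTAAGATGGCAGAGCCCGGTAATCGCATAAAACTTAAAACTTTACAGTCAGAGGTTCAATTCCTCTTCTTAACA
MT-ATP8 to MT-ATP6: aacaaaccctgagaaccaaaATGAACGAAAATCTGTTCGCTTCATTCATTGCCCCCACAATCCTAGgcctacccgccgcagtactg
MT-ND5 to MT-ND6: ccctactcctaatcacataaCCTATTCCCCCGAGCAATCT
MT-ND4L and MT-ND4 share 7 bases in the same way. MT-ND5 and MT-ND6 meet end to end on opposite strands with no tRNA between them. No source used here gives the strand setting of the counting, so sense and antisense reads of any of these genes cannot be told apart.

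The libraries held between 17420373 and 36479629 estimated counts, with a median of 24017581. Whether the 3 replicates came from separate cultures is not labelled, and p-values therefore cover the spread of these libraries alone, which may be technical. Epithelial markers such as KRT8 and KRT18 were abundant in all libraries, and none of the 6 blood cell markers passed the filter. Levels below are normalised read counts (CPM, counts scaled to a common library size), and a difference in them does not tell apart a change in RNA per cell from a change in the number of cells or mitochondria. How mRNA was selected is not given, so rRNA counts may also depend on how much rRNA was captured, which was not tested. Genes were tested by quasi-likelihood in edgeR, with Benjamini-Hochberg adjusted p-values over 17129 genes, and a gene is called where that value is under 0.05. Values after ± are standard errors beside log2 fold changes and SD with n = 3 beside levels. Replicate 3 of the low dose of CR stood apart from the other two, with 14.8% of its counts on mitochondrial genes against 20.1% and 19.1%, and calls that change without this library are named beside their results.

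In vehicle libraries mitochondrial genes took 9.80 ± 0.346% of all counts. Per kilobase of gene, MT-RNR2 with 14427 ± 606 CPM and MT-CO3 with 13869 ± 418 CPM were the most abundant there and did not differ beyond their spread. MT-CO1 followed with 10891 ± 274 CPM per kilobase. The lowest were MT-ND6 with 1094 ± 54.9, MT-RNR1 with 1607 ± 87.0 and MT-ND5 with 1898 ± 79.4 CPM per kilobase. The 2 rRNAs lie side by side on one precursor, yet MT-RNR1 gave 6.82 ± 0.129 counts per 100 counts of MT-RNR2.

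**Figure D1:**
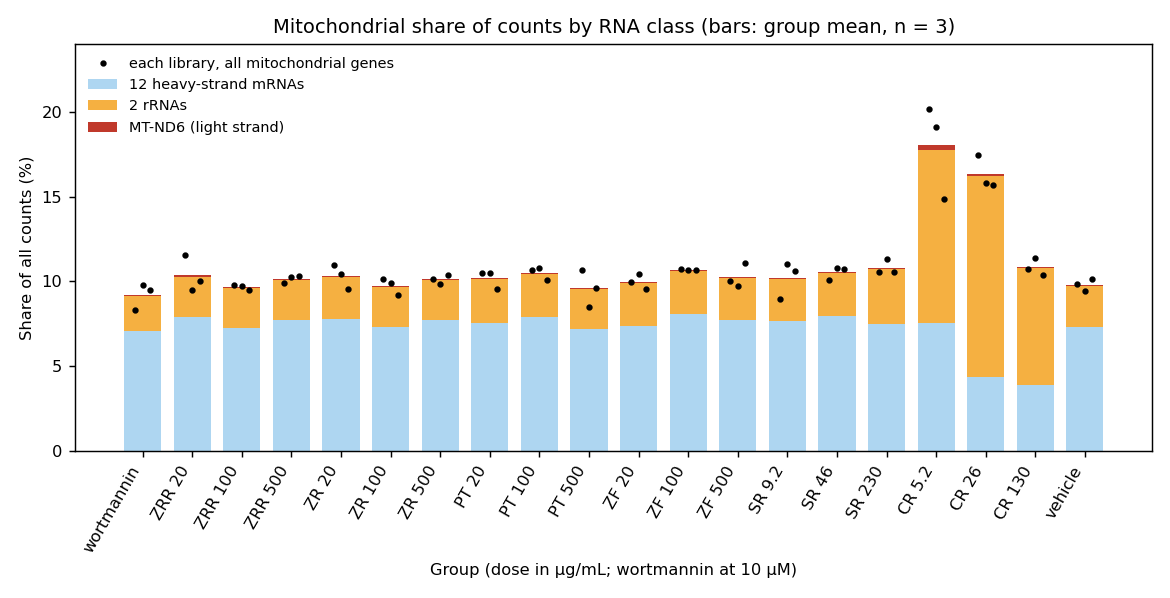
Share of all counts (%) on mitochondrial genes in the 20 groups, with wortmannin first, the 6 extracts in order of dose and vehicle last. Stacked bars are group means by RNA class (n = 3) and points are the totals of single libraries; the 6 libraries of CR at 5.2 and 26 µg/mL lie between 14.8% and 20.1%, while all 51 libraries without CR lie between 8.33% and 11.6%.

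The groups kept close to one another except for low and medium CR. Across the 51 libraries that received no CR, the mitochondrial share ran from 8.33% to 11.6% with a median of 10.1%. Low and medium CR stood highest with 18.04 ± 2.81% and 16.3 ± 0.990%, and high CR and high SR followed with 10.8 ± 0.486% and 10.8 ± 0.441%. Wortmannin was lowest with 9.20 ± 0.765%. Neighbours in this order, apart from the step between medium and high CR, differed by less than their spread.

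With all 60 libraries in the fit, Coptidis Rhizoma changed most tested mitochondrial genes at the low dose and nearly all at the higher doses, in more than one direction. At the low dose 12 of the 15 tested genes were called against vehicle, 6 higher and 6 lower, where 17.7% of all tested genes were called, 8.51% higher and 9.15% lower. With only the compared libraries in the fit 7 were called at the low dose, as MT-ND2, MT-CO2, MT-ATP8, MT-ATP6 and MT-ND4L were lost. At the medium dose all 15 were called, 5 higher and 10 lower, where 23.2% of all tested genes were called, 12.1% higher and 11.1% lower. At the high dose 14 were called, 2 higher and 12 lower, where 35.1% of all tested genes were called, 18.5% higher and 16.7% lower. The median log2 fold change of the 15 genes was -0.24 at the low, -0.85 at the medium and -0.79 at the high dose, where that of all genes was 0.01 each time. The call counts across CR doses share the vehicle libraries.

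**Figure D2:**
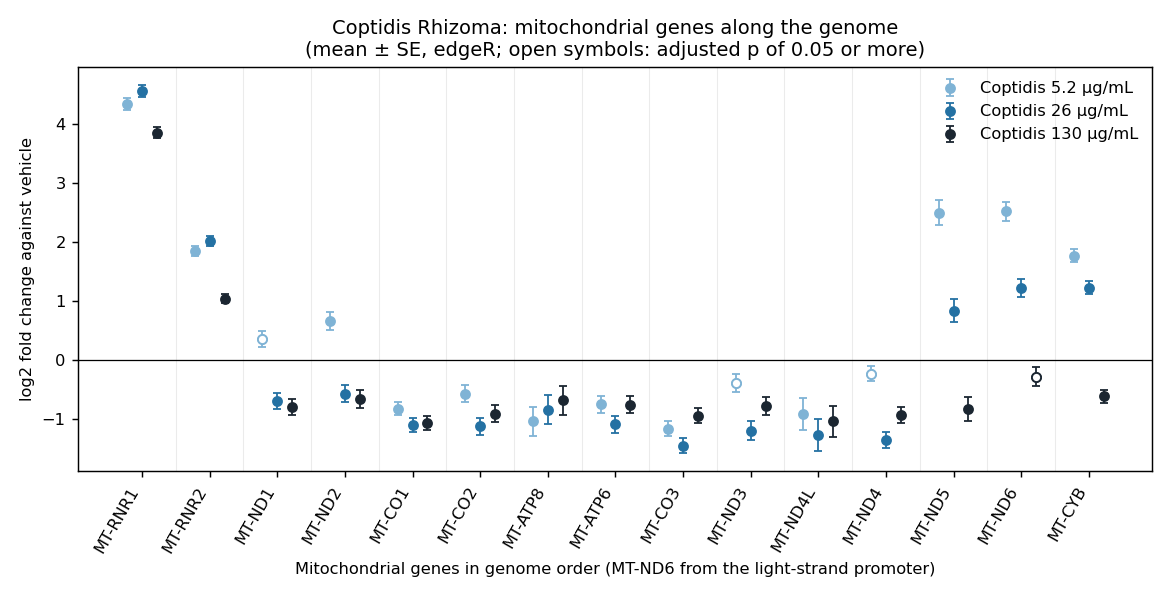
Log2 fold change against vehicle (edgeR, mean ± SE) of the 15 tested mitochondrial genes in genome order, for CR at 5.2, 26 and 130 µg/mL; open symbols have an adjusted p of 0.05 or more. Both rRNAs lie above 0 at each dose, the genes from MT-CO1 to MT-ND4 below 0, and MT-ND5, MT-ND6 and MT-CYB lie between 0.83 and 2.52 at the lower doses and below 0 at 130 µg/mL.

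The small rRNA, MT-RNR1 (chrM:648-1601), is the RNA core of the small subunit of the mitochondrial ribosome. It measured 1581, 1438 and 1581 CPM in the vehicle libraries, 34062, 32574 and 26773 CPM at the low dose, 39577, 33764 and 35644 CPM at the medium dose, and 21124, 23806 and 21963 CPM at the high dose. Every CR library lay above all 51 libraries without CR, which reached at most 2278 CPM. The log2 fold change was 4.34 ± 0.10 at the low dose (edgeR adjusted p = 1.91e-34), 4.57 ± 0.10 at the medium dose (adjusted p = 3.21e-35) and 3.86 ± 0.10 at the high dose (adjusted p = 6.94e-33).

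The large rRNA, MT-RNR2 (chrM:1671-3229), forms the core of the large ribosomal subunit. It measured 23291, 21450 and 22735 CPM in the vehicle libraries, 90646, 84119 and 67986 CPM at the low dose, 98983, 86801 and 87977 CPM at the medium dose, and 44361, 49631 and 44736 CPM at the high dose. All CR libraries lay above all vehicle libraries, and the high dose lay below the other doses without overlap. The log2 fold change was 1.85 ± 0.08, 2.02 ± 0.08 and 1.04 ± 0.08 at the low, medium and high dose (edgeR adjusted p = 2.56e-23, 3.44e-25 and 1.99e-15). Neighbouring genes of one precursor thus rose by unequal amounts.

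The ratio of the rRNAs shows this without any scaling between libraries. MT-RNR1 gave 37.6, 38.7 and 39.4 counts per 100 counts of MT-RNR2 in the low-dose libraries, 40.0, 38.9 and 40.5 in the medium-dose libraries and 47.6, 48.0 and 49.1 in the high-dose libraries, whereas vehicle libraries gave 6.79, 6.70 and 6.96. The 9 CR libraries lay between 37.6 and 49.1, and the 51 others between 6.08 and 8.32. The rRNAs took 56.8 ± 2.75%, 72.7 ± 1.57% and 63.5 ± 1.73% of mitochondrial counts at the low, medium and high dose of CR, against 24.9 ± 0.732% under vehicle.

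**Figure D3:**
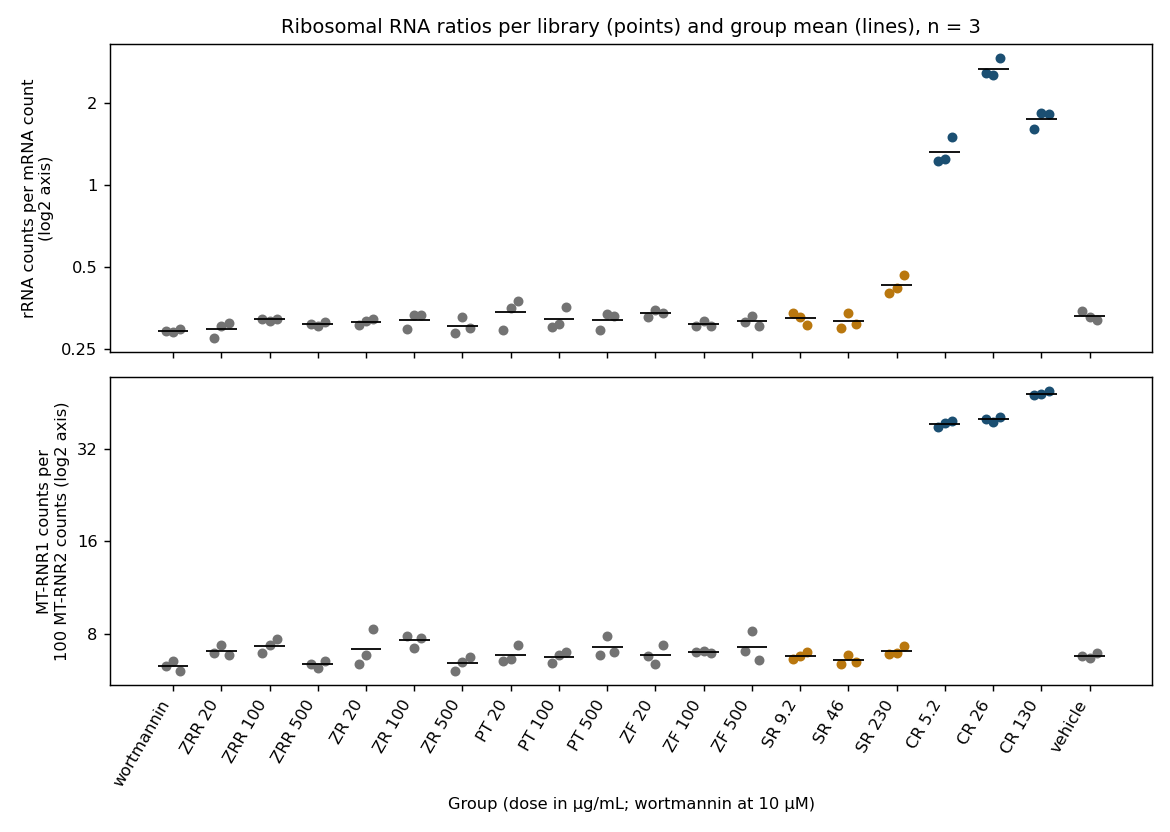
Ratio of rRNA to mRNA counts (upper panel) and counts of MT-RNR1 per 100 counts of MT-RNR2 (lower panel) in each library (points) with group means (lines, n = 3), both on log2 axes. The 9 CR libraries lie at 1.22 or above in the upper panel and at 37.6 or above in the lower one, and high SR lies at 0.403 to 0.466 in the upper panel, above its own lower doses.

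The genes at the far end of the heavy-strand precursor followed dose most steeply. MT-ND5 (chrM:12337-14148), a proton-pumping subunit of complex I, measured 3605, 3366 and 3347 CPM in vehicle libraries, 24082, 18394 and 15799 CPM at the low dose, 7456, 5933 and 5016 CPM at the medium dose, and 1997, 2139 and 1647 CPM at the high dose. No library of one dose overlapped those of another, and the high dose lay under vehicle. The log2 fold change against vehicle was 2.50 ± 0.21, 0.83 ± 0.20 and -0.84 ± 0.20 at the low, medium and high dose (edgeR adjusted p = 2.45e-12, 0.00154 and 0.000816).

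MT-CYB (chrM:14747-15887), cytochrome b of complex III, showed the same order. It measured 4556, 4295 and 5343 CPM in vehicle libraries, 17553, 16625 and 14204 CPM at the low dose, 11582, 11780 and 9817 CPM at the medium dose, and 3154, 3153 and 2915 CPM at the high dose. The 4 sets of libraries did not overlap. Its log2 fold change was 1.77 ± 0.12, 1.23 ± 0.11 and -0.62 ± 0.11 (edgeR adjusted p = 1.88e-16, 7.22e-12 and 1.56e-05).

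MT-ND6 (chrM:14149-14673, minus strand), the complex I subunit of the light strand, lies between those genes. It measured 607, 551 and 565 CPM in vehicle libraries, 4027, 2667 and 3197 CPM at the low dose, 1549, 1467 and 1003 CPM at the medium dose, and 483, 550 and 380 CPM at the high dose. The low and medium doses lay above vehicle and apart from each other, and the high dose lay just under vehicle. The log2 fold change was 2.52 ± 0.16 and 1.22 ± 0.16 at the low and medium dose (edgeR adjusted p = 6.36e-16 and 6.40e-08), and at the high dose it was -0.29 ± 0.16 and not called (adjusted p = 0.158).

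MT-ND6 moved in the same direction as its heavy-strand neighbours at each dose, though its fall at the high dose was smaller and not called. Per 100 counts of MT-ND5 and MT-CYB together it gave 9.31 ± 1.55 counts at the low dose, 7.73 ± 0.84 at the medium and 9.37 ± 1.03 at the high dose of CR, against 7.05 ± 0.48 under vehicle. Every low-dose and high-dose library lay above all vehicle libraries in this ratio, while the medium dose overlapped them. The shift was not particular to CR. Every library of low ZRR, medium ZF and high PT also lay above all vehicle libraries, with means of 8.95, 8.25 and 8.17. At the low and medium dose MT-ND5 and MT-CYB parted from genes closer to the start of the precursor. MT-ND5 gave 236 ± 47.0, 158 ± 13.6 and 36.7 ± 2.29 counts per 100 counts of MT-ND4 at the low, medium and high dose, against 34.5 ± 3.90 under vehicle. The high dose overlapped vehicle there. MT-CYB gave 358 ± 100.8, 282 ± 37.0 and 54.7 ± 1.96 counts per 100 counts of MT-CO3, against 43.4 ± 3.85 under vehicle. High SR gave 58.55 ± 3.62 in that ratio, so its rise at high CR was not particular to CR.

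**Figure D4:**
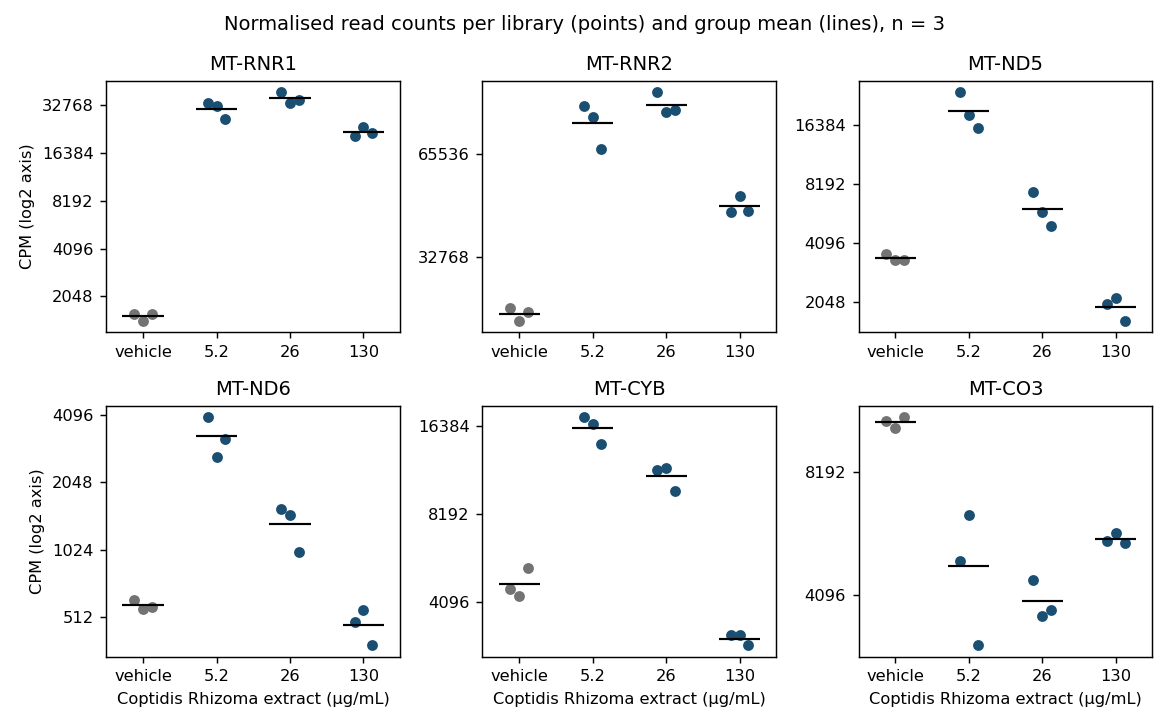
Normalised read counts (CPM, log2 axes) of 6 mitochondrial genes in each library (points) with group means (lines, n = 3), for vehicle and CR at 5.2, 26 and 130 µg/mL. MT-RNR1 and MT-RNR2 stay above vehicle at each dose, MT-ND5, MT-ND6 and MT-CYB step down with dose to averages under vehicle, and MT-CO3 lies under vehicle at each dose.

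The complex IV genes fell at every dose. MT-CO3 (chrM:9207-9990), a subunit of cytochrome c oxidase, measured 10941, 10518 and 11162 CPM in vehicle libraries, 4951, 6426 and 3087 CPM at the low dose, 4449, 3632 and 3776 CPM at the medium dose, and 5549, 5813 and 5499 CPM at the high dose. All CR libraries lay under all vehicle libraries. The log2 fold change was -1.17 ± 0.12, -1.46 ± 0.13 and -0.95 ± 0.12 (edgeR adjusted p = 1.54e-09, 8.11e-13 and 2.09e-08), and that at the medium dose was the largest fall of any mRNA there. MT-CO1, the catalytic subunit, changed by -0.83 ± 0.11, -1.11 ± 0.12 and -1.08 ± 0.12 (adjusted p = 6.45e-07, 1.59e-10 and 1.03e-10), and MT-CO2, which receives electrons from cytochrome c, by -0.58 ± 0.14, -1.13 ± 0.14 and -0.92 ± 0.14 (adjusted p = 0.00424, 3.93e-08 and 1.26e-06). The low-dose call of MT-CO2 was lost without low replicate 3 and with only the compared libraries in the fit (edgeR adjusted p = 0.0653 and 0.309).

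Both ATP synthase subunits also fell at every dose. MT-ATP6, part of the proton channel, averaged 3438 ± 1410, 2716 ± 263 and 3408 ± 116 CPM at the low, medium and high dose, against 5808 ± 207 CPM under vehicle, with log2 fold changes of -0.76 ± 0.14, -1.10 ± 0.15 and -0.77 ± 0.14 (edgeR adjusted p = 0.000248, 9.44e-08 and 2.95e-05). MT-ATP8, a small subunit of the membrane part, averaged 241 ± 83.9, 277 ± 4.51 and 308 ± 28.2 CPM, against 499 ± 57.6 CPM under vehicle. Its changes of -1.05 ± 0.25, -0.85 ± 0.25 and -0.69 ± 0.24 were called at each dose (adjusted p = 0.00282, 0.00921 and 0.0232). The last was lost without CR high replicate 2 or 3 or without vehicle replicate 2 (adjusted p = 0.060, 0.0753 and 0.0900). With only the compared libraries in the fit the low-dose calls of MT-ATP6 and MT-ATP8 were lost (edgeR adjusted p = 0.217 and 0.0812). That of MT-ATP8 was also lost without low replicate 3 (adjusted p = 0.0522).

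Among the complex I genes, MT-ND1 and MT-ND2 had positive log2 fold changes at the low dose and negative ones at the others. MT-ND1, which helps form the quinone site, measured 5244, 4853 and 6095 CPM in vehicle libraries, 8274, 7942 and 4359 CPM at the low dose, 3679, 3347 and 2971 CPM at the medium dose, and 3290, 3254 and 2752 CPM at the high dose. Replicate 3 of the low dose lay under all vehicle libraries and the other two above them. Its log2 fold change was 0.35 ± 0.14 and not called at the low dose (edgeR adjusted p = 0.0702), and it was -0.70 ± 0.14 and -0.80 ± 0.14 at the medium and high dose (adjusted p = 0.000136 and 6.42e-06). MT-ND2, a membrane subunit, was called higher at the low dose by 0.66 ± 0.15 (adjusted p = 0.00152) and lower at the others by -0.58 ± 0.15 and -0.67 ± 0.15 (adjusted p = 0.00277 and 0.000267). Its low-dose call was lost with only the compared libraries in the fit (edgeR adjusted p = 0.126).

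The remaining complex I mRNAs are MT-ND3, MT-ND4L and MT-ND4, all membrane subunits. They were lower and called at the medium dose, by -1.20 ± 0.15, -1.28 ± 0.27 and -1.37 ± 0.13 (edgeR adjusted p = 5.21e-08, 0.000321 and 3.52e-11), and at the high dose, by -0.79 ± 0.15, -1.05 ± 0.27 and -0.94 ± 0.13 (adjusted p = 5.61e-05, 0.00160 and 1.25e-07). At the low dose only MT-ND4L of these 3 was called, with -0.92 ± 0.27 (adjusted p = 0.0142), while MT-ND3 and MT-ND4 had -0.39 ± 0.15 and -0.24 ± 0.13 (adjusted p = 0.0687 and 0.207). MT-ND3 was called without low replicate 1 or 2 (adjusted p = 0.0466 and 0.0166). Without replicate 3 of the low dose, 10 genes were called there: MT-ND4L, MT-CO2 and MT-ATP8 were lost (adjusted p = 0.160, 0.0653 and 0.0522) and MT-ND1 was gained with 0.59 (adjusted p = 0.000583). MT-ND1 was also called without vehicle replicate 3 (0.45, adjusted p = 0.0346). MT-ND4L was also lost with a term for transcript length (-0.47, adjusted p = 0.182) and with only the compared libraries in the fit (-0.93, adjusted p = 0.128).

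The steps between doses were compared directly. High against low CR gave calls in 8 of the 15 genes, all lower, where 25.4% of all genes were called and 12.3% were lower. They were MT-ND5 with -3.33 ± 0.22, MT-ND6 with -2.81 ± 0.17, MT-CYB with -2.39 ± 0.12, MT-ND2 with -1.33 ± 0.15, MT-ND1 with -1.15 ± 0.14, MT-RNR2 with -0.81 ± 0.08, MT-ND4 with -0.70 ± 0.13 and MT-RNR1 with -0.48 ± 0.09 on the log2 scale. MT-ND4 was lost with only the compared libraries in the fit (edgeR adjusted p = 0.0877). Without replicate 3 of the low dose 12 genes were called, as MT-ATP6, MT-CO1, MT-CO2 and MT-ND3 were added. Neither MT-CO3 nor MT-ATP8 was called, with 0.22 ± 0.12 and 0.36 ± 0.24 (edgeR adjusted p = 0.194 and 0.308), but without low replicate 2 MT-CO3 was called with 0.48 (adjusted p = 0.00152).

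The intermediate steps were added after the data were seen. Medium against low gave 8 calls, all lower, where 3.10% of all genes were called, and neither rRNA was among them (MT-RNR1 0.22 ± 0.09, MT-RNR2 0.17 ± 0.08, edgeR adjusted p = 0.221 and 0.306). MT-ND5 alone stayed called with only the compared libraries in the fit. Without replicate 3 of the low dose 11 genes were called, as MT-ATP6, MT-CO1 and MT-CO3 were added with -0.65, -0.48 and -0.53. The call of MT-CO2 was lost without low replicate 1 or 2 (edgeR adjusted p = 0.255 and 0.198) or without medium replicate 2 or 3 (adjusted p = 0.104 and 0.147). High against medium gave 7 calls where 7.53% of all genes were called. There MT-CYB fell by 1.85, MT-ND5 by 1.67, MT-ND6 by 1.51, MT-RNR2 by 0.98 and MT-RNR1 by 0.70 on the log2 scale, while MT-CO3 and MT-ND4 rose by 0.51 ± 0.12 and 0.43 ± 0.13 (adjusted p = 0.00484 and 0.0318). The call of MT-ND4 was lost without CR high replicate 1 or 2 or without CR medium replicate 3 (adjusted p = 0.115, 0.117 and 0.243).

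Ratios and shares within a library were followed over the doses. A trend over the 3 doses was tested by exact permutation of the 9 libraries of an extract, two-sided, with Benjamini-Hochberg adjustment over 30 tests (5 measures in 6 extracts), in log2 units for each 5-fold step in dose. For CR the mitochondrial share fell by 0.362 for each step (exact p = 0.00476, adjusted p = 0.0357). The ratio of complex I to complex IV mRNA fell by 0.735 (exact p = 0.00119, the smallest that the design can give, adjusted p = 0.0357). That ratio was 2.46 ± 0.307 at the low, 1.22 ± 0.0770 at the medium and 0.882 ± 0.0347 at the high dose, against 0.785 ± 0.0439 under vehicle.

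The ratio of MT-ND6 to the heavy-strand mRNAs fell by 0.867 for each step of CR (exact permutation p = 0.00357, adjusted p = 0.0357). Set against MT-ND5 and MT-CYB alone, however, it changed by 0.008 (exact p = 0.923). The slope of log2 counts along 10 heavy-strand mRNA units, each overlapping pair taken as one unit, fell by 0.085 (exact p = 0.00238, adjusted p = 0.0357), and the call was lost with position in kilobases (-0.077, adjusted exact p = 0.0571). The slope was 0.0802, 0.0701 and 0.1325 in low-dose libraries and 0.0687, 0.0772 and 0.0615 in medium-dose libraries, which overlapped. It was -0.080, -0.0694 and -0.0784 at the high dose, near the vehicle values of -0.0854, -0.0842 and -0.0818. The ratio of rRNA to mRNA counts was 1.32 ± 0.153, 2.67 ± 0.217 and 1.75 ± 0.127 at the low, medium and high dose, against 0.331 ± 0.0130 under vehicle, and gave no call for a trend over the doses (0.204 for each step, exact p = 0.288). No measure was called for another extract, and ZRR came nearest with a fall of 0.195 in the ratio of MT-ND6 to the heavy-strand mRNAs (exact p = 0.00833, adjusted p = 0.05). Set against MT-ND5 and MT-CYB alone, the ZRR trend was called (-0.214, exact p = 0.00357, adjusted p = 0.0357).

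Vehicle and CR libraries carry different first numbers in the sample code, and the number cannot be told apart from treatment. ZF libraries share that number with CR, so CR was also compared with ZF at the same dose level, a choice made after the data were seen. Low CR against low ZF gave 12 called genes, 6 higher and 6 lower, where 5.11% of all genes were called. With only the compared libraries in the fit 5 were called, all higher, as MT-ND2 and every lower call were lost. Without replicate 3 of low CR 12 were called, with MT-ND3 lost (-0.39, edgeR adjusted p = 0.127) and MT-ND1 gained (0.53, adjusted p = 0.00298). Medium CR against medium ZF gave 15, 5 higher and 10 lower, where 17.2% were called, and high CR against high ZF gave 15, 2 higher and 13 lower, where 34% were called. MT-RNR1 was higher by 4.27 ± 0.10, 4.46 ± 0.10 and 3.74 ± 0.10 at the low, medium and high dose, about as much as against vehicle.

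The change from low to high dose was also tested against that of ZF by an interaction term. It differed in 8 of the 15 genes, all lower in CR, where 11.4% of all genes were called. MT-ND5 differed by -3.43 ± 0.29 and MT-ND6 by -2.93 ± 0.23 on the log2 scale (edgeR adjusted p = 3.56e-12 and 2.74e-13). In high CR the called fall of MT-ND6 against ZF, -0.47 ± 0.16 (adjusted p = 0.0167), was lost without CR high replicate 3 or without ZF high replicate 2 or 3 (adjusted p = 0.133, 0.0696 and 0.0902).

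Scutellariae Radix raised the rRNAs at its high dose. MT-RNR1 measured 1948, 2155 and 2278 CPM in the high-dose libraries, against 1581, 1438 and 1581 CPM in vehicle libraries. MT-RNR2 measured 28118, 31012 and 31150 CPM at the high dose, against 23291, 21450 and 22735 CPM under vehicle. The high-dose libraries lay above vehicle for both genes without overlap. The log2 fold changes were 0.47 ± 0.09 for MT-RNR1 and 0.42 ± 0.08 for MT-RNR2 (edgeR adjusted p = 6.33e-05 and 4.29e-05).

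High SR gave 3 called genes of 15, all higher, where 23.9% of all genes were called and 13% were higher. The number of mitochondrial calls was 5 with only the compared libraries in the fit and 6 with no filter on low counts. Without that filter 3782 of all 36774 genes were called. The third gene called was MT-CYB with 5868, 6215 and 5586 CPM, against 4556, 4295 and 5343 CPM under vehicle (0.32 ± 0.11, edgeR adjusted p = 0.0342). That call was lost without SR high replicate 1 or 2 or without vehicle replicate 1 or 2 (adjusted p between 0.0541 and 0.144). MT-ND6 measured 737, 622 and 609 CPM, against 607, 551 and 565 CPM under vehicle, and was not called (0.19 ± 0.16, adjusted p = 0.420). MT-ND3 changed least, with 0.00 ± 0.15 and 1734, 1772 and 1632 CPM, against 1597, 1567 and 1966 CPM.

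As for CR, the first number of the code cannot be told apart from treatment in SR against vehicle. High against low SR, which share that number, gave 2 called genes, again the rRNAs, where 20.4% of all genes were called and 11.1% were higher. MT-RNR1 measured 1948, 2155 and 2278 CPM at the high dose, against 1399, 1726 and 1623 CPM at the low dose (0.43 ± 0.09, edgeR adjusted p = 0.000318). MT-RNR2 differed by 0.37 ± 0.08 (adjusted p = 0.000270). The change from low to high dose was larger in SR than in PT, which has the same first number, by 0.49 ± 0.13 for MT-RNR1 and 0.52 ± 0.11 for MT-RNR2 (adjusted p = 0.00619 and 0.000736), where 11.3% of all genes were called.

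The rRNAs took 30.02 ± 1.57% of mitochondrial counts under high SR, against 24.9 ± 0.732% under vehicle, and the ratio of rRNA to mRNA did not overlap between them (0.403 to 0.466 and 0.319 to 0.345, exact permutation p = 0.1, the smallest that 3 against 3 allows). MT-RNR1 gave 7.06 ± 0.217 counts per 100 counts of MT-RNR2 at the high dose, against 6.82 ± 0.129 under vehicle.

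Wortmannin lowered the rRNAs. MT-RNR1 measured 1044, 1282 and 1170 CPM under wortmannin, against 1581, 1438 and 1581 CPM under vehicle. MT-RNR2 measured 16522, 19555 and 19214 CPM, against 23291, 21450 and 22735 CPM. All wortmannin libraries lay under all vehicle libraries for both. The log2 fold changes were -0.40 ± 0.09 and -0.29 ± 0.08 (edgeR adjusted p = 0.000689 and 0.00446).

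These 2 were the only mitochondrial genes called for wortmannin, where 25.3% of all genes were called and 11.9% were lower. A fit of only the compared libraries called 6, and one with no filter on low counts 8. Without that filter 3828 of all 36774 genes were called. The mRNA with the largest change was MT-ND4L with 681, 873 and 883 CPM, against 1081, 1130 and 1062 CPM under vehicle (-0.43 ± 0.26, edgeR adjusted p = 0.254), called with a term for transcript length (-0.52, adjusted p = 0.0439), with only the compared libraries in the fit (adjusted p = 0.0287) and with no filter on low counts. MT-CO1 had the smallest, with 15458, 17644 and 17354 CPM, against 17234, 16394 and 16753 CPM (0.00 ± 0.11, adjusted p = 0.994). MT-ND6 measured 541, 496 and 506 CPM, against 607, 551 and 565 CPM (-0.16 ± 0.16, adjusted p = 0.506). The ratio of rRNA to mRNA was 0.292 ± 0.00375 under wortmannin, against 0.331 ± 0.0130 under vehicle, without overlap (exact permutation p = 0.1). High ZRR also lay under vehicle without overlap in this ratio (exact permutation p = 0.1). Its log2 difference was -0.098, against -0.182 for wortmannin. Replicate 1 of low ZRR, at 0.275, and of high ZR, at 0.288, lay under all wortmannin libraries.

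**Figure D5:**
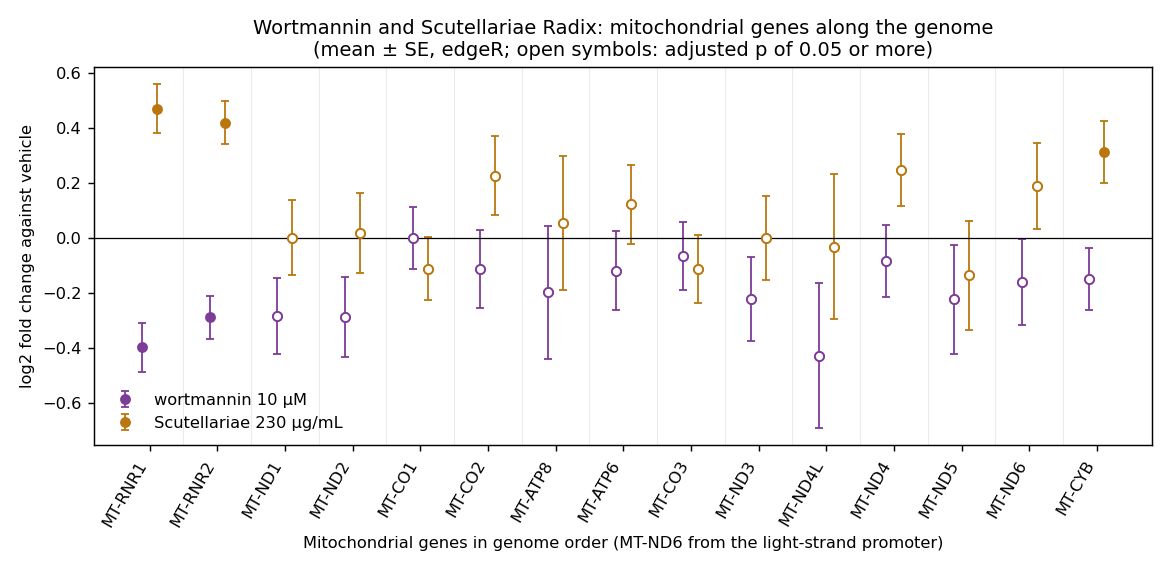
Log2 fold change against vehicle (edgeR, mean ± SE) of the 15 tested mitochondrial genes in genome order, for wortmannin at 10 µM and SR at 230 µg/mL; open symbols have an adjusted p of 0.05 or more. The rRNAs are called in opposite directions, from -0.40 for MT-RNR1 under wortmannin to 0.47 under SR, and of the mRNAs only MT-CYB under SR is called.

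The gingers, Pinelliae Tuber and Zizyphi Fructus left the mitochondrial genes without a call against vehicle. At their high doses edgeR called 0 of 15 genes in each of ZRR, ZR, PT and ZF, where 4.03%, 5.35%, 1.40% and 0.00584% of all genes were called. DESeq2 called 0 as well, and 0 had an unadjusted p under 0.05. With only the compared libraries in the fit, edgeR called 1 gene each in ZRR and ZR, and with no filter on low counts 1 in ZR, 2 in PT and 3 in ZF. Of all 36774 genes without the filter, 755, 1343 and 476 were called in ZR, PT and ZF. MT-RNR1 measured 1385, 1374 and 1503 CPM in high ZRR, 1260, 1450 and 1496 CPM in high ZR, 1548, 1572 and 1548 CPM in high PT and 1557, 1867 and 1583 CPM in high ZF, against 1581, 1438 and 1581 CPM under vehicle. Its log2 fold changes were -0.11, -0.13, 0.02 and 0.12 for ZRR, ZR, PT and ZF, each with a standard error of 0.09.

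MT-RNR2 and MT-ND6 lay as close to vehicle in these groups. MT-RNR2 measured 21694, 22139 and 22923 CPM in high ZRR, 20729, 22297 and 22105 CPM in high ZR, 22624, 19880 and 22095 CPM in high PT and 22002, 22793 and 24014 CPM in high ZF, against 23291, 21450 and 22735 CPM under vehicle. MT-ND6 measured 526, 584 and 579 CPM in high ZRR, 623, 543 and 592 CPM in high ZR, 685, 537 and 671 CPM in high PT and 520, 700 and 736 CPM in high ZF, against 607, 551 and 565 CPM. The ranges overlapped vehicle in every one of these groups for both genes. The largest mRNA changes were 0.20 ± 0.13 for MT-ND4 in ZRR, 0.24 ± 0.26 for MT-ND4L in ZR, -0.32 ± 0.26 for MT-ND4L in PT and 0.28 ± 0.24 for MT-ATP8 in ZF, and the smallest were between -0.07 and 0.01.

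The lower doses of the 5 extracts other than CR gave no calls either. In 10 comparisons of a medium or low dose with vehicle neither edgeR nor DESeq2 gave more than 0 calls in 150 gene tests, and 5 tests had an unadjusted p under 0.05. With only the compared libraries in the fit, edgeR called 4 genes at the medium dose of ZRR, 3 of ZR and 3 of ZF. With no filter on low counts it called 8 of the 15 genes at the low dose of ZRR, 5 of ZR and 2 of ZF. Of all 36774 genes in that setting, 1328, 426 and 507 were called there. At the medium dose that setting called 2 of the 15 genes in ZRR, 2 in ZR, 1 in PT and 7 in ZF. Of all genes it called 1031, 2219, 102 and 225 there. It called 0 of the 15 genes at low PT and at low and medium SR, where it called 70, 148 and 59 of all genes. With the filter and all libraries in the fit, 0.28%, 0.922%, 0.0175%, 0% and 0.0117% of all genes were called at medium ZRR, ZR, PT, SR and ZF. At their low dose 0.111%, 0.00584%, 0%, 0.00584% and 0.0117% were called. High against low gave 0 calls in ZR, PT and ZF by edgeR and by DESeq2, with 1, 0 and 0 genes at an unadjusted p under 0.05, where 4.64%, 0.549% and 0% of all genes were called.

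High against low ZRR gave 1 call, where 4.17% of all genes were called. It was MT-ATP8 with 418, 546 and 426 CPM at the high dose, against 1298, 563 and 778 CPM at the low dose (-0.92 ± 0.24, edgeR adjusted p = 0.0190). The groups did not overlap, but replicate 1 of the low dose lay far above the others. Without that library the change was -0.54 (adjusted p = 0.211), and the call was also lost without high replicate 1 or 3 (adjusted p = 0.0971 and 0.0979). MT-ND6 gave 563 ± 31.9 CPM at the high dose, against 778 ± 160 CPM at the low dose (-0.47 ± 0.16, adjusted p = 0.0840). The difference between the gingers in their change from low to high dose gave 0 calls among the 15 genes by edgeR and DESeq2, with 1 at an unadjusted p under 0.05, where 0.140% of all genes were called.

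The tRNAs were almost uncounted. All 22 together had 170 counts in the 60 libraries, and 10 of them were listed at 0 in every library, which allows up to 3 counts in each. Their genes are 59 to 75 bases long, shorter than the 100-base reads. The 9 CR libraries held 79 of the 170 counts, with 3 to 15 counts each, while the 51 other libraries held 91, with 0 to 5 each. MT-TM, the methionine tRNA, had 42 counts in CR libraries and 9 in the others, and MT-TS1, a serine tRNA, had 0 and 27. MT-TQ, the glutamine tRNA beside MT-TM, had 18 and 24. These counts are too few for a test and are given as they stand.

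Nuclear genes were compared by 2 lists. Of 32 factors that act on mitochondrial DNA or its RNA, wortmannin lowered 17 and raised 1. Of all genes 25.3% were called and 11.9% were lower. The median log2 fold change was -0.19 over the list and 0.01 over all genes. The lowered factors included TWNK, the DNA helicase, with -0.38 ± 0.04, SUPV3L1, the helicase of the RNA-degrading complex, with -0.39 ± 0.05, and PNPT1, its nuclease partner, with -0.26 ± 0.03 (edgeR adjusted p = 2.10e-09, 4.00e-08 and 8.34e-08). The raised one was MTERF2, a DNA-binding member of the terminator family, with 0.22 ± 0.08 (adjusted p = 0.0289). Of 46 nuclear subunits of complexes I, III, IV and V, wortmannin lowered 7 and raised 0, a share of the list not far from that 11.9%, and ATP5F1B, the catalytic subunit of ATP synthase, changed most clearly with -0.40 ± 0.04 (adjusted p = 1.09e-09).

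High CR raised 6 and lowered 11 of the 32 factors, with a median of -0.02, where 35.1% of all genes were called, 18.5% higher and 16.7% lower. TOP1MT, the mitochondrial topoisomerase, rose by 0.59 ± 0.07 and LRPPRC, which stabilises mitochondrial mRNA, by 0.14 ± 0.04 (edgeR adjusted p = 2.08e-09 and 0.00328). FASTKD5, known for cutting precursor borders that lack a tRNA, changed by -0.40 ± 0.05, FASTKD2, which binds the large rRNA, by -0.32 ± 0.04, and PRORP, which cuts the leading end of tRNAs, by -0.32 ± 0.05 (adjusted p = 9.93e-09, 9.90e-08 and 2.73e-06). SUPV3L1 rose by 0.16 ± 0.05 (adjusted p = 0.00776). At the medium dose 3 were raised and 7 lowered, where 12.1% and 11.1% of all genes were. At the low dose 0 were raised and 6 lowered, where 8.51% and 9.15% of all genes were.

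Of the 46 nuclear respiratory subunits high CR raised 1, where 35.1% of all genes were called, CYC1 of complex III (0.28 ± 0.07, edgeR adjusted p = 0.00199), and lowered NDUFS1 of complex I (-0.14 ± 0.05, adjusted p = 0.0149) and ATP5MC3 of ATP synthase (-0.31 ± 0.11, adjusted p = 0.0201). Medium CR raised 5 and lowered 0, and low CR raised 8 and lowered 1, with medians of 0.17 and 0.25. Of all genes 12.1% were higher at the medium dose and 8.51% at the low dose. High against low CR lowered 12 and raised 0, where 12.3% of all genes were lower, with a median of -0.21, while that of the 15 mitochondrial genes was -0.48.

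High SR raised 2 and lowered 7 of the 32 factors, with a median of -0.06, where 23.9% of all genes were called. FASTKD5 changed by -0.50 ± 0.05, ELAC2, which cuts the trailing end of tRNAs, by -0.30 ± 0.04 and FASTKD2 by -0.29 ± 0.04 (edgeR adjusted p = 8.33e-11, 6.85e-08 and 1.26e-06), while FASTK rose by 0.27 ± 0.09 and TOP1MT by 0.19 ± 0.07 (adjusted p = 0.0174 and 0.0498). Of the 46 nuclear subunits high SR raised 0 and lowered 2, NDUFS1 and UQCRC2 (-0.14 ± 0.05 and -0.10 ± 0.04, adjusted p = 0.0185 and 0.0311).

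Nuclear copies of mitochondrial genes can share their reads. The table lists 404 such copies, of which 152 had a count, and together they held 0.852% as many counts as the mitochondrial genes. MTATP6P1 had 12.1% of the counts of MT-ATP6, MTND2P28 2.93% of those of MT-ND2, and MTCO1P12 0.409% of those of MT-CO1. MTATP6P1 amounted to 17.4 ± 0.976%, 16.7 ± 0.539% and 12.7 ± 0.805% of MT-ATP6 at low, medium and high CR, against 11.7 ± 0.845% under vehicle. Adding the counts of all copies to their mitochondrial genes changed none of the 495 gene calls.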

How the data were processed

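Expected counts per gene were deposited by the authors in 1 table. Per the submitters' processing notes, the tools were RSEM 1.3.3, STAR 2.7.3a, Trim Galore 0.6.5 and FastQC 0.11.9, with the hg38 build. No source used here gives the annotation release, the strand setting, how mRNA was selected or how multi-mapping reads were treated. RSEM shares reads between overlapping genes and copies by estimate, which bears on MT-ATP8, MT-ATP6, MT-ND4L, MT-ND4 and the nuclear copies. The other 209 of 269 columns belong to no sample here and were not used.

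Counts were rounded and scaled with TMM, genes were filtered by filterByExpr, and edgeR 4.0.16 (R 4.3.3) fitted all 60 libraries with 1 coefficient for each group (40 residual degrees of freedom). Benjamini-Hochberg adjustment ran over 17129 genes within each comparison. DESeq2 1.42.0 was an alternative, and the others are given in the closing section. Standard errors are the log2 fold change divided by the root of the F statistic. The procedure was tested on simulated data. Positions and lengths come from GENCODE 29. Replicate numbers did not pair libraries across groups, and no libraries were identical. Library totals limit precision only for the tRNAs, and the limit of 3 counts for a count of 0 covers counting error only.

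The members and lists were chosen with earlier results of these data known. Values by library were given for MT-RNR1, MT-RNR2, MT-ND6 and the mRNAs with the largest and smallest change, and up to 3 called list genes in each direction with the smallest p were named. The values of further mRNAs under CR and of tRNAs, and the genes whose calls changed, were chosen after their values were seen.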

Additional observations from a re-analysis of the deposited data

Results flagged for a closer look

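CR and ZF, and SR and PT, share the first number of the sample code, and in both pairs the change from low to high dose differed by a test of the difference itself (edgeR's quasi-likelihood interaction term, Benjamini-Hochberg adjusted). Between CR and ZF it differed in 8 of the 15 genes, where 11.4% of all genes were called. The log2 difference was -3.43 for MT-ND5, -2.93 for MT-ND6, -2.52 for MT-CYB, -1.50 for MT-ND2, -1.26 for MT-ND1, -0.77 for MT-ND4, -0.76 for MT-RNR2 and -0.53 for MT-RNR1, with the largest adjusted p at 0.00340 for MT-ND4. The doses of CR and ZF differ, and MT-RNR1 and MT-ND4 were no longer called with only the compared libraries in the fit (edgeR adjusted p = 0.0592 and 0.108). Without replicate 3 of the low dose of CR, 12 genes differed.

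Between SR and PT the change differed by 0.52 for MT-RNR2 and 0.49 for MT-RNR1 (edgeR adjusted p = 0.000736 and 0.00619). They were 2 of the 15 genes, a share not far from the 11.3% called among all genes. The doses of SR and PT differ too.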

How the results depend on the processing

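Over 495 gene comparisons no call changed its direction under any alternative. With no filter on low counts more genes were called: 8 for wortmannin, 1 for high ZR, 2 for high PT, 6 for high SR, 3 for high ZF, and 58 rather than 27 over the medium and low doses together. Between high and low dose it gave 2 for ZRR, 4 for ZR, 2 for PT, 5 for SR and 14 for CR, with 2 for ZRR against ZR, 13 for medium against low CR and 11 for high against medium CR. Of all 36774 genes it called 912, 882, 729, 2791 and 4173 between high and low ZRR, ZR, PT, SR and CR. For ZRR against ZR it called 112, for medium against low CR 567 and for high against medium CR 1210. The tRNAs entered there, and of the 15 genes above 13 of the 14 and 57 of the 58 were called, the others being MT-TQ and MT-TM. With only the compared libraries in the fit, 6 were called for wortmannin, 1 for high ZRR, 1 for high ZR, 5 for high SR, 7 for low CR, 5 for low CR against low ZF, 1 for medium against low CR and 0 for high against low ZRR, while medium ZRR, ZR and ZF gained 4, 3 and 3. DESeq2 called 2 for high against low ZRR. The cause was not tested. For fits of only the compared libraries, the share of all genes called is not given here.

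Leaving out 1 library gave 0 to 1 calls for high against low ZRR, 8 to 12 for high against low CR, 7 to 11 for medium against low CR and 8 to 12 for CR against ZF. For the CR trends, every library of 1 replicate number was left out in turn. This gave -0.415 to -0.316 for the share and -1.033 to -0.714 for MT-ND6 to heavy-strand mRNA. For the slope along the genome it gave -0.093 to -0.075, and for complex I to IV -0.800 to -0.684. The 90 arrangements left there allow no exact p under 0.0222.

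With the replicate number as a block, no gene call changed. The blocked CR trends kept their values of -0.362, -0.867, -0.085 and -0.735, with an adjusted exact permutation p of 0.111 each, where the design allows no p under 0.00926. In the 30 comparisons checked the numbers paired no samples. With position in kilobases the CR slope was -0.077 (adjusted exact p = 0.0571). Against MT-ND5 and MT-CYB only, the MT-ND6 trend was 0.008 in CR and -0.214 in ZRR (adjusted exact p = 0.954 and 0.0357). Library totals without TMM moved the median of all genes by -0.148 in low CR, -0.118 in medium CR and 0.150 in high against low CR, and no mitochondrial call reversed.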
